A study of Drosophila melanogaster with 9 samples.

Results

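The comparison described here set fat bodies of larvae that had switched on an active insulin receptor against fat bodies of control larvae given the same heat shock, in 6 of the 9 libraries of the series and over all 10372 genes of the deposited table. Virgin females of a hs-GAL4 driver line, in which heat induces the yeast activator GAL4, were mated with males of Bloomington stock 8263, which carry UAS-InR.A1325D, or with 6598 males, which the titles call yw. In both crosses, female larvae at the mid stage of the third instar were warmed to 37 °C for 30 min. Their fat bodies were collected 6 h later. This gave the groups InRCA_HS (active receptor, 3 libraries) and control_HS (driver without UAS-InR.A1325D, 3 libraries). The remaining group, InRCA_noHS (3 libraries), came from the 8263 cross moved to a new vial and kept at 25 °C without heat. It enters here as a source of side-by-side values and of the estimate of the spread. Larvae of the 6598 cross without heat were not analysed here.

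UAS-InR.A1325D encodes a receptor with a changed amino acid that signals without insulin. A heat-shock driver acts in all tissues of the larva and not in the fat body alone. Heat was common to both groups and the male parent was not, and the activity of the transgene and other differences between the male stocks cannot be told apart in this comparison. Fat bodies were isolated by shearing and centrifugation, and no label tells whether a group's libraries were made from separate animals or cultures. The p-values therefore measure the spread between these libraries, which may be technical.

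Insulin-like peptides bind the receptor InR, and adaptors such as chico pass the signal through phosphoinositide 3-kinase to the kinase Akt1. Akt1 keeps the transcription factor foxo out of the nucleus and raises TOR activity, which favours ribosome production, protein synthesis and fat storage. The larval fat body stores lipid and glycogen, secretes serum proteins into the hemolymph, senses nutrients for the rest of the animal and makes antimicrobial peptides when Toll or Imd signalling is active.

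Values are adjusted counts. The values themselves show read counts adjusted to a common library size, which is inferred and not stated in the sources used here. Their totals per library still differed, at 11708204 to 15514912 in control_HS and 10625545 to 12145829 in InRCA_HS. Differences are log2 fold changes of InRCA_HS over control_HS on the log2(adjusted count + 1) scale, given ± SE. They were tested with limma and corrected over the whole table (Benjamini-Hochberg), and "rose" and "fell" are used of genes with an adjusted p under 0.05. Reads recovered from the table summed to 9536513 to 17600180 per library in the 6 libraries compared. All 8 fat body markers were in the table, which holds only genes with reads in every library. Their summed adjusted counts were 3622262.5 to 4081485 in control_HS and 2628216 to 3427372 in InRCA_HS. These sums, and those of other markers below, were not divided by the library totals, which were also higher in most control_HS libraries. In bulk RNA, fewer cells of a type and less RNA per cell cannot be told apart.

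InRCA_HS and control_HS differed in 252 genes, 2.43% of the 10372 tested. Of these, 115 genes rose (1.11%) and 137 fell (1.32%), while the median log2 fold change of all genes was 0.00. An unadjusted p under 0.05 was reached by 1899 of the 10372 genes. Counts of list members at that limit, given below, are to be read beside this background. Where a processing alternative moved the median of a gene list by more than 1.5 times or across 0, its range over the alternatives stands in brackets behind it. In 988 genes (9.53%) all 3 values of InRCA_HS lay above all 3 of control_HS, and in 1145 genes (11.0%) all lay below. These include each of the 115 genes that rose and each of the 137 that fell, so the groups overlap in none of the called genes named here. Control_HS replicate 1 stood apart from its group. On the first principal component it lay at −14.8, with the other control_HS libraries at −55.6 and −37.7, and it was the control library nearest to InRCA_HS in 111 of the 137 genes that fell. Without it, 325 genes were higher (3.13%) and 636 lower (6.13%). InRCA_HS replicate 3 was the library of its group nearest to control_HS in 65 of the 115 genes that rose and 77 of the 137 that fell, and 183 genes were higher and 165 lower without it. Without any of the other libraries the counts went down: to 34 higher and 27 lower without control_HS replicate 2, to 36 and 21 without control_HS replicate 3, to 32 and 24 without InRCA_HS replicate 1, and to 44 and 39 without InRCA_HS replicate 2. With 1 of the InRCA_noHS libraries left out, 68 to 71 genes were higher and 65 to 79 lower. In every one of the 9 such fits, 41 genes kept their call, 23 higher and 18 lower. The quasi-likelihood test of edgeR on reads recovered from the table called 118 genes higher (1.14%) and 162 lower (1.56%). For the values set beside this comparison, the same limma fit called 182 genes higher (1.75%) and 83 lower (0.800%) in InRCA_HS than in InRCA_noHS, and 337 higher (3.25%) and 392 lower (3.78%) in InRCA_noHS than in control_HS.

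**Figure D1:**
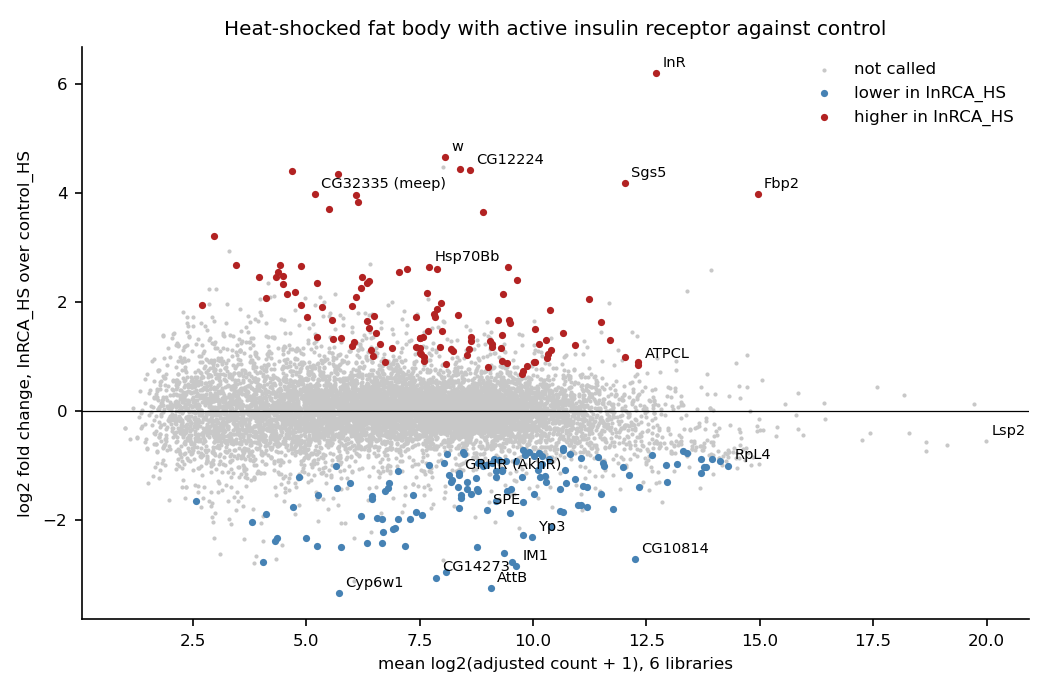
Log2 fold change of InRCA_HS over control_HS (vertical axis) against the mean log2(adjusted count + 1) of the 6 libraries (horizontal axis), with 1 point per gene; red marks the 115 genes that rose, blue the 137 that fell and grey the rest. InR lies highest at 6.20, and the called genes are spread over the whole range of levels.

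InR itself was measured first, because its mRNA comes from both the native gene and the transgene. It had adjusted counts of 743, 785 and 826 in control_HS and 66688, 47774 and 60402 in InRCA_HS, a 73.5-fold difference (log2 fold change 6.20 ± 0.25, adjusted p = 6.87e-07). All 3 InRCA_HS libraries lay far above the controls. The unheated InRCA_noHS libraries, at 1821, 3662 and 2128, also lay above the controls (log2 difference 1.63, adjusted p = 0.00467). The eye-colour gene w, often carried by fly transgenes as a visible marker, had adjusted counts of 52.4, 38.6 and 69.0 in control_HS and 1492, 1302 and 1229 in InRCA_HS (log2 fold change 4.66 ± 0.25, adjusted p = 4.67e-06). InRCA_noHS had 72.03, 112 and 71.8, which did not pass the test against control_HS (log2 difference 0.67, adjusted p = 0.128). Of the 16 eye pigment genes, 2 rose, w and Pu, and 0 fell. Pu is GTP cyclohydrolase, the first enzyme of pteridine synthesis, and had 2544, 1738 and 2141 in control_HS and 5264, 6774 and 4009 in InRCA_HS (log2 fold change 1.31 ± 0.22, adjusted p = 0.0172). The unheated cross had 2166, 1624 and 1834, within or close to the control range. InR and w kept the call in each of the 9 fits without 1 library. The call of Pu did not survive the omission of 1 library, with an adjusted p of up to 0.0735 (without InRCA_HS replicate 1).

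Beyond InR, the core insulin and TOR pathway had few calls at the mRNA level. Of its 24 measured genes, 1 rose (InR) and 1 fell, and the median of the list was 0.00 (−0.01 to 0.11). The gene that fell was melt, a membrane-associated protein that modulates TOR and foxo activity, with adjusted counts of 358, 544 and 393 in control_HS and 189.7, 213 and 164 in InRCA_HS (log2 fold change −1.17 ± 0.19, adjusted p = 0.0163). Its unheated level was also low, at 250.1, 207 and 212 (log2 difference from control_HS −0.93, adjusted p = 0.0188). Lnk, an adaptor of the receptor, had 396, 379.8 and 413 in control_HS and 285, 258 and 282 in InRCA_HS. Its groups did not overlap, yet the difference missed the threshold (log2 fold change −0.52 ± 0.13, adjusted p = 0.0686, and log2 fold change −0.53, adjusted p = 0.0484 without control_HS replicate 1). Pi3K21B, the adaptor subunit of phosphoinositide 3-kinase, had 545, 515 and 597 in control_HS and 793, 810.3 and 740.4 in InRCA_HS (log2 fold change 0.50 ± 0.18, adjusted p = 0.157). The log2 fold changes of chico (0.01 ± 0.18), Akt1 (0.27 ± 0.17) and foxo (0.16 ± 0.18) had adjusted p-values of 0.99, 0.426 and 0.69. Thor, the translation inhibitor 4E-BP and a classical foxo target, had adjusted counts of 1415, 945 and 879 in control_HS and 2141, 2106 and 1324 in InRCA_HS, with overlapping groups (log2 fold change 0.78 ± 0.28, adjusted p = 0.16). Of 16 foxo-responsive genes, 1 rose (InR) and 2 fell. Their log2 fold changes were above 0 in 7 and below 0 in 9, with a median of −0.08 (−0.11 to −0.03). Without 1 library in turn, 0 to 3 of them were lower, with 0 for control_HS replicates 2 and 3, InRCA_HS replicates 1 and 2 and InRCA_noHS replicates 2 and 3. The call of melt did not survive the omission of 1 library, with an adjusted p of up to 0.0692 (without InRCA_HS replicate 1).

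Genes that link the fat body to hormones of energy balance were among those that fell. GRHR (AkhR), the receptor for the adipokinetic hormone that mobilises stored fat and sugar, had adjusted counts of 364, 599 and 549.6 in control_HS and 189.5, 219.6 and 249 in InRCA_HS (log2 fold change −1.17 ± 0.22, adjusted p = 0.0242). Every InRCA_HS library lay below every control library, and the unheated cross, at 609.8, 446 and 446, lay at the control level (log2 fold change −1.18, adjusted p = 0.018 over InRCA_noHS). tobi, an alpha-glucosidase whose expression responds to insulin and adipokinetic hormone, had 112, 383 and 254 in control_HS and 46.7, 28.3 and 75.4 in InRCA_HS (log2 fold change −2.23 ± 0.44, adjusted p = 0.031). CG8317 (Lst), the peptide limostatin, which restrains insulin secretion in adult flies, had 6996, 8698 and 9733 in control_HS and 3513, 2578 and 3634 in InRCA_HS (log2 fold change −1.39 ± 0.20, adjusted p = 0.00883), and the unheated cross lay between the groups at 6088, 4397 and 5298. daw, an activin-like ligand under the control of foxo, had 1433, 1394 and 1898 in control_HS and 776, 815 and 1064 in InRCA_HS (log2 fold change −0.83 ± 0.18, adjusted p = 0.0392). The unheated cross had 2011, 1657 and 1880.0 (log2 fold change −1.07, adjusted p = 0.0108 over InRCA_noHS). Of the 18 secreted nutrient and growth signals, daw was the 1 that fell and 0 rose, with a median of −0.24 (−0.39 to −0.16). Of these signals 6 were lower without control_HS replicate 1 and 0 to 1 without 1 of the others, with 0 for control_HS replicates 2 and 3, InRCA_HS replicates 1 and 2 and InRCA_noHS replicates 1, 2 and 3. Ilp6, the insulin-like peptide of the fat body, had 980.4, 772 and 1085 in control_HS and 609, 554 and 631 in InRCA_HS, again without overlap (log2 fold change −0.65 ± 0.18, adjusted p = 0.0793). Unheated libraries held 2399.6, 1747 and 2287, well above both heated groups (log2 fold change of InRCA_HS over InRCA_noHS −1.83, adjusted p = 0.000575, and of InRCA_noHS over control_HS 1.18, adjusted p = 0.00432). ImpL2, which binds insulin-like peptides in the hemolymph, had 452, 285 and 356 in control_HS and 450.1, 674 and 698 in InRCA_HS (log2 fold change 0.73 ± 0.25, adjusted p = 0.138). Left out in turn, no single library ended the call of CG8317. GRHR, tobi and daw lost the call without some library. Their highest adjusted p ran from 0.104 (GRHR, without InRCA_HS replicate 1) to 0.163 (daw, without InRCA_HS replicate 1).

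Several other signalling genes passed the test, of which Egfr, Lgr1, 5-HT2 and S6kII are named after their values were seen. bnl, a fibroblast growth factor ligand that guides tracheal branching, had adjusted counts of 164, 160.4 and 228 in control_HS and 65.1, 57.7 and 80.4 in InRCA_HS (log2 fold change −1.42 ± 0.21, adjusted p = 0.01). Without heat the values were 96.8, 86.4 and 105. Egfr, the epidermal growth factor receptor, had 2092, 1905 and 2110.0 in control_HS and 1149, 1275 and 1415 in InRCA_HS (log2 fold change −0.67 ± 0.14, adjusted p = 0.0391). Both fell with no overlap between groups. Lgr1, a receptor of the glycoprotein hormone family, had 9.70, 9.28 and 6.87 in control_HS and 117, 44.4 and 26.7 in InRCA_HS (log2 fold change 2.47 ± 0.46, adjusted p = 0.0242), and the unheated cross held still more, at 165, 93.6 and 131. 5-HT2 (5-HT2A), a serotonin receptor, had 17.5, 10.7 and 25.1 in control_HS and 92.4, 44.4 and 47.2 in InRCA_HS (log2 fold change 1.73 ± 0.36, adjusted p = 0.0382). InRCA_noHS stood at 78.1, 78.2 and 102. S6kII, the fly ribosomal S6 kinase of the RSK type, had 203, 162 and 234 in control_HS and 444, 603 and 306 in InRCA_HS (log2 fold change 1.14 ± 0.24, adjusted p = 0.0376). Libraries without heat held 532, 576 and 544. Those 3 genes were thus high in both groups of the 8263 cross. With any 1 library left out, bnl passed the threshold. Calls for Lgr1, S6kII, 5-HT2 and Egfr depended on the set of libraries. With 1 library omitted, their highest adjusted p lay between 0.0983 (Lgr1, without control_HS replicate 3) and 0.163 (Egfr, without InRCA_HS replicate 1).

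**Figure D2:**
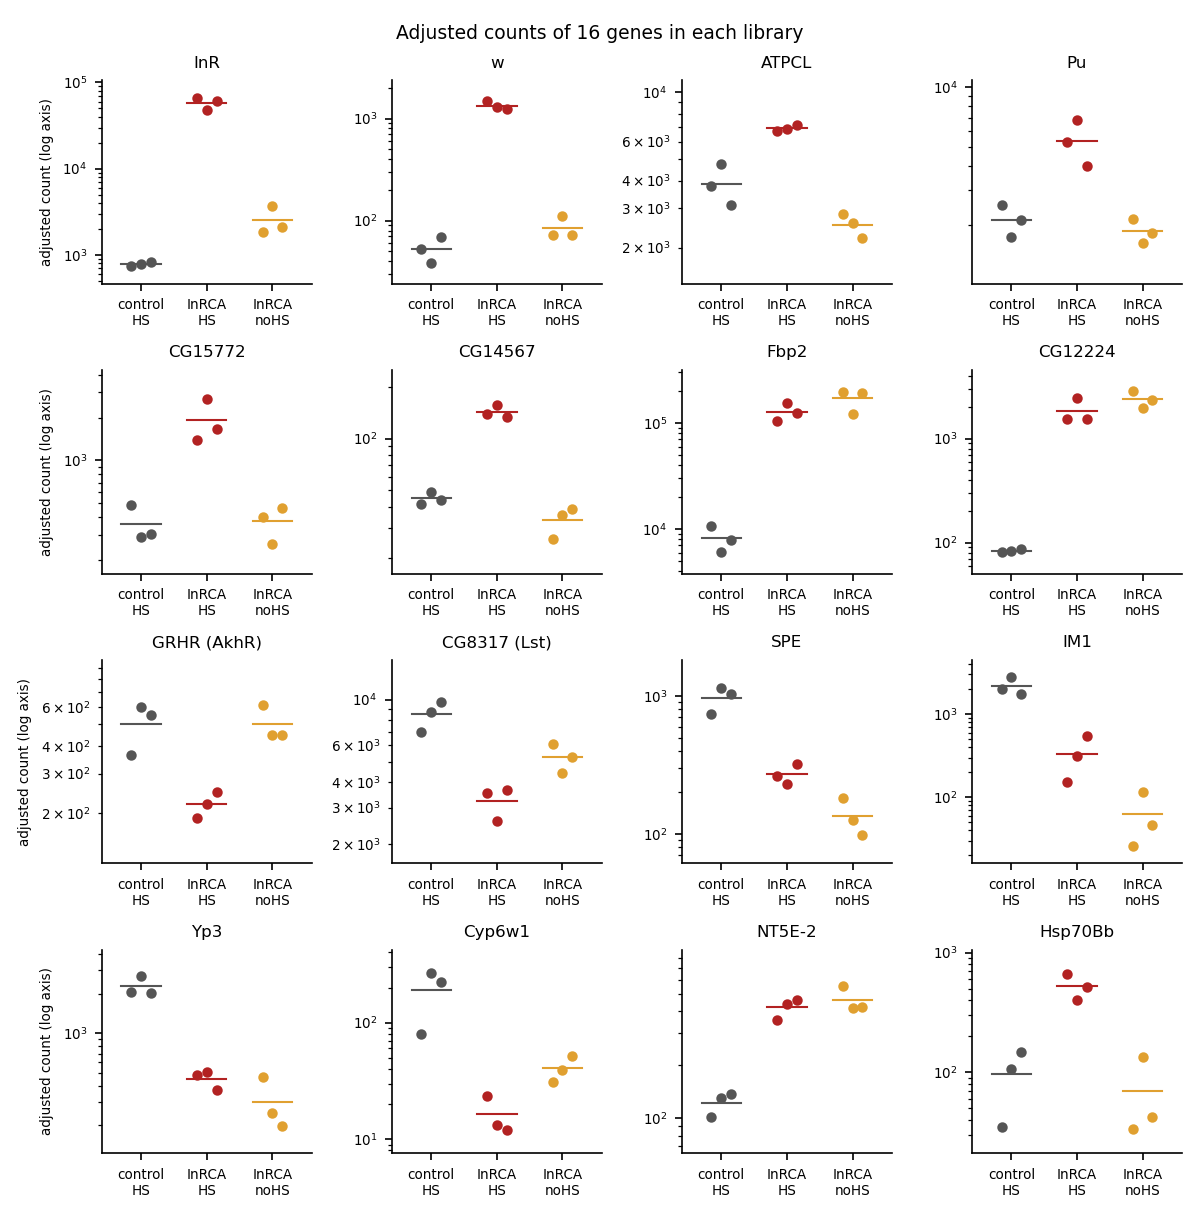
Adjusted counts (log axis, a separate range per panel) of 16 genes in each of the 9 libraries; points are libraries, grey for control_HS, red for InRCA_HS and yellow for InRCA_noHS, and bars are group means. InR, w, ATPCL, Pu, CG15772, CG14567 and Hsp70Bb are highest in InRCA_HS, whereas Fbp2, CG12224 and NT5E-2 are high in both groups of the 8263 cross.

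All 15 glycolytic genes had a log2 fold change below 0, against 49.8% of all genes, and their median was −0.54, but only 1 fell by the test and 0 rose. That gene was Tpi, triose phosphate isomerase, with adjusted counts of 4221, 7574 and 5994 in control_HS and 2620.1, 3147 and 2755 in InRCA_HS (log2 fold change −1.03 ± 0.22, adjusted p = 0.0391). Among the glycolytic genes 6 were lower without control_HS replicate 1 and 0 without any other library. Of 14 genes for gluconeogenesis, trehalose and glycogen, 2 fell, tobi and fbp, and the median was −0.62 (−0.70 to −0.39). fbp, fructose-1,6-bisphosphatase, an enzyme of gluconeogenesis, had 1012, 1714 and 1336 in control_HS and 479, 601 and 644 in InRCA_HS (log2 fold change −1.21 ± 0.23, adjusted p = 0.0266). Pepck, the entry enzyme of gluconeogenesis, had 13143, 30852 and 23698 in control_HS and 5197, 6594 and 14998 in InRCA_HS, with InRCA_HS replicate 3 above control_HS replicate 1 (log2 fold change −1.41 ± 0.41, adjusted p = 0.0969). Tps1, which makes trehalose, the main blood sugar of insects, had 6653, 16316 and 12778 in control_HS and 3584, 4903 and 5126 in InRCA_HS (log2 fold change −1.31 ± 0.32, adjusted p = 0.0589). For both, the value without control_HS replicate 1 passed the threshold (log2 fold change −1.76, adjusted p = 0.0284 for Pepck and −1.69, adjusted p = 0.00564 for Tps1). On the list of gluconeogenesis, trehalose and glycogen 7 were lower without control_HS replicate 1 and 0 to 4 without 1 of the others, with 0 for control_HS replicates 2 and 3, InRCA_HS replicates 1 and 2 and InRCA_noHS replicate 3. Omission of 1 library ended the calls of fbp and Tpi, with highest adjusted p-values of 0.119 (fbp, without InRCA_HS replicate 1) to 0.151 (Tpi, without InRCA_HS replicate 1).

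Some enzymes around malate, pyruvate and NADPH fell as well. Men, the NADP-dependent malic enzyme that supplies NADPH for fat synthesis, had adjusted counts of 3214, 7041 and 5382 in control_HS and 1516, 1649 and 1998 in InRCA_HS (log2 fold change −1.54 ± 0.29, adjusted p = 0.0245). It was the 1 of 22 genes on the tricarboxylic acid cycle list that fell, and that list had a median of −0.29 (−0.35 to −0.19). Of that list 9 were lower without control_HS replicate 1 and 0 to 1 without 1 of the others, with 0 for control_HS replicates 2 and 3 and InRCA_HS replicates 1 and 2. Mdh1, cytosolic malate dehydrogenase, had 13997, 22078 and 25225 in control_HS and 7238, 11311 and 10554 in InRCA_HS (log2 fold change −1.06 ± 0.27, adjusted p = 0.0681). CG6145 (Nadk1a), an NAD kinase that makes NADP, had 643, 844 and 802 in control_HS and 341, 409.9 and 431 in InRCA_HS (log2 fold change −0.95 ± 0.18, adjusted p = 0.0241). Unheated larvae had 824, 617 and 643. Pdk, the kinase that inactivates pyruvate dehydrogenase, had 847, 1253 and 1236 in control_HS and 599.9, 471 and 671 in InRCA_HS (log2 fold change −0.93 ± 0.20, adjusted p = 0.0423). In the pentose phosphate pathway, the other main source of NADPH, 1 of 7 genes fell. This was Rpi, ribose-5-phosphate isomerase, at 1011, 1332 and 1292 in control_HS and 561, 835 and 697 in InRCA_HS (log2 fold change −0.80 ± 0.18, adjusted p = 0.0488). Zw, glucose-6-phosphate dehydrogenase and the first enzyme of the pathway, had 562, 895 and 303 in control_HS and 597, 738 and 599 in InRCA_HS (log2 fold change 0.26 ± 0.33, adjusted p = 0.737). Unheated Zw libraries lay far lower, at 199, 160.4 and 131 (log2 fold change of InRCA_HS over InRCA_noHS 1.99, adjusted p = 0.0104). The highest adjusted p without 1 library lay between 0.104 (CG6145, without InRCA_HS replicate 1) and 0.182 (Rpi, without InRCA_HS replicate 1) for CG6145, Men, Pdk and Rpi.

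Lipid genes changed in both directions. ATPCL, ATP citrate lyase, which makes the cytosolic acetyl-CoA for fat synthesis, was the 1 lipogenic gene of 21 that rose, with adjusted counts of 3785, 4749.6 and 3104 in control_HS and 6679, 6857 and 7097 in InRCA_HS (log2 fold change 0.85 ± 0.18, adjusted p = 0.0392). The unheated libraries had 2834, 2572 and 2200.2 (log2 fold change of InRCA_HS over InRCA_noHS 1.45, adjusted p = 0.00278). ACC, acetyl-CoA carboxylase, did not follow it, with 5179, 14055 and 5826 in control_HS and 3980.2, 4939 and 7345 in InRCA_HS, with overlapping groups (log2 fold change −0.52 ± 0.35, adjusted p = 0.482). The unheated libraries, at 1016, 810.1 and 824, lay below both heated groups. The lipogenic genes that fell were Men and v(2)k05816 (FASN2), a fatty acid synthase, with 117, 188 and 153 in control_HS and 45.0, 47.3 and 58.9 in InRCA_HS (log2 fold change −1.56 ± 0.26, adjusted p = 0.0163). Among 27 genes of beta-oxidation, which burns fatty acids, 23 had a log2 fold change below 0 and the median was −0.63. Only 1 of them fell, CG12428 (CROT), carnitine octanoyltransferase, at 1274, 1971 and 1736 in control_HS and 723, 958 and 791 in InRCA_HS (log2 fold change −0.996 ± 0.21, adjusted p = 0.0369). In beta-oxidation 14 were lower without control_HS replicate 1 and 0 to 1 without 1 of the others, with 0 for control_HS replicates 2 and 3, InRCA_HS replicates 1 and 2 and InRCA_noHS replicate 3. whd, carnitine palmitoyltransferase, the gate for fatty acids into mitochondria, had 1206, 1742 and 2108 in control_HS and 988, 897 and 969 in InRCA_HS (log2 fold change −0.79 ± 0.19, adjusted p = 0.0632). Gk (Gk2), glycerol kinase, also fell, with 815, 1002 and 715 in control_HS and 484, 414 and 449 in InRCA_HS (log2 fold change −0.90 ± 0.16, adjusted p = 0.0223). Dbi (Acbp2), an acyl-CoA-binding protein, had 375, 1027 and 517 in control_HS and 233, 217 and 157 in InRCA_HS (log2 fold change −1.55 ± 0.31, adjusted p = 0.0332). CG5966, which came from the lipolysis list, had 4052, 3052 and 5908 in control_HS and 2255, 2009.5 and 2184 in InRCA_HS (log2 fold change −0.96 ± 0.22, adjusted p = 0.0479), and stood at 11491, 11071 and 11052 in the unheated cross. For v(2)k05816, Gk, Dbi, CG5966, CG12428 and ATPCL, the least favourable omission of 1 library put the adjusted p at 0.0746 (v(2)k05816, without InRCA_HS replicate 1) to 0.151 (ATPCL, without control_HS replicate 3).

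**Figure D3:**
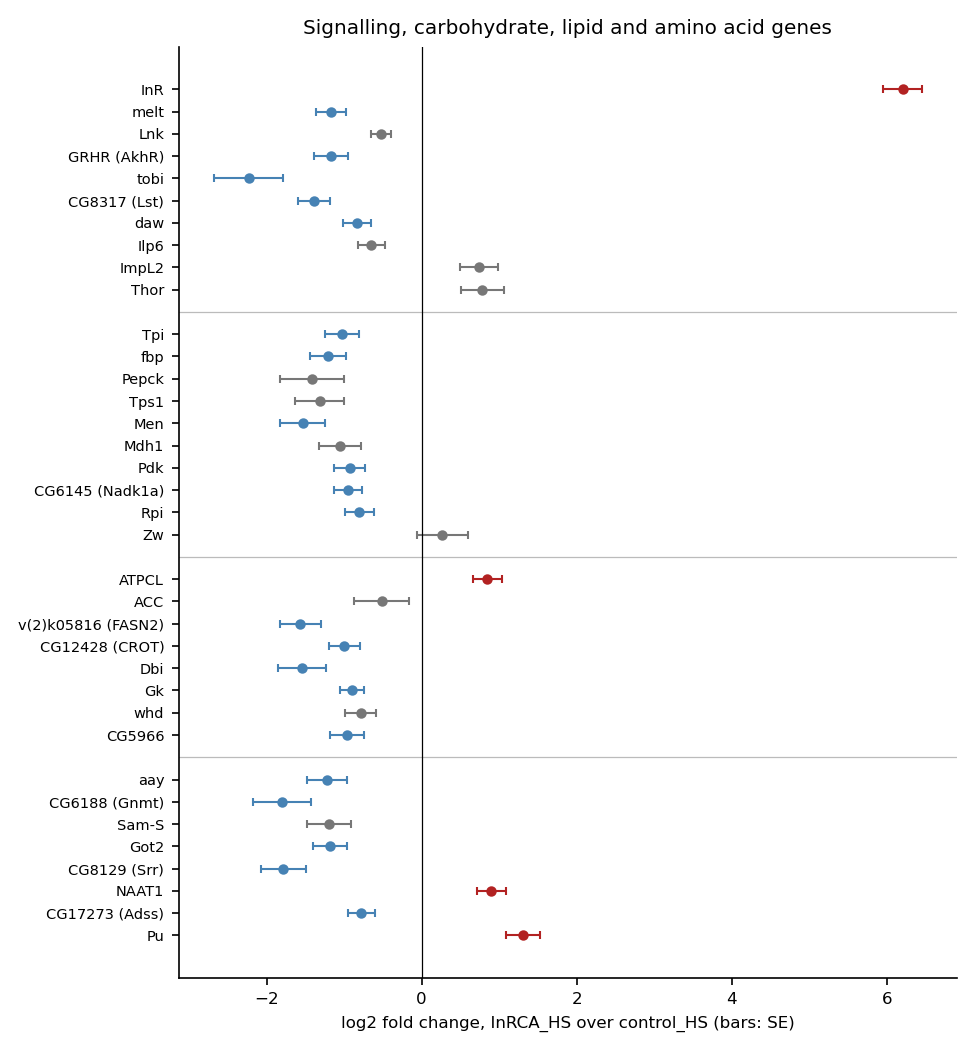
Log2 fold change of InRCA_HS over control_HS with its SE (horizontal axis) for 36 genes of hormone signalling, carbohydrate and NADPH metabolism, lipid metabolism, and amino acid and nucleotide metabolism (blocks from top to bottom); red rose, blue fell and grey did not pass the test. InR at 6.20, ATPCL at 0.85, NAAT1 at 0.90 and Pu at 1.31 are the genes that rose, and most of the rest lie to the left of 0.

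Part of amino acid metabolism was lower. Of 17 genes on the one-carbon list, 2 fell and 0 rose, with a median of −0.50. In this list 7 were lower without control_HS replicate 1 and 0 to 3 without 1 of the others, with 0 for control_HS replicates 2 and 3, InRCA_HS replicate 1 and InRCA_noHS replicates 2 and 3. CG6188 (Gnmt), glycine N-methyltransferase, which uses up S-adenosylmethionine, had adjusted counts of 3533, 7920.1 and 9928 in control_HS and 1758, 1736 and 2167 in InRCA_HS (log2 fold change −1.80 ± 0.37, adjusted p = 0.0379). aay, phosphoserine phosphatase, the last step of serine synthesis, had 496, 907 and 615 in control_HS and 214, 289.6 and 347 in InRCA_HS (log2 fold change −1.23 ± 0.26, adjusted p = 0.0386). The unheated cross had 881, 658 and 577 (log2 fold change −1.32, adjusted p = 0.0236 over InRCA_noHS). Sam-S, which makes S-adenosylmethionine, had 2792, 5360.5 and 5740.5 in control_HS and 1524, 1969 and 2390.3 in InRCA_HS, with no overlap (log2 fold change −1.19 ± 0.28, adjusted p = 0.0561; log2 fold change −1.52, adjusted p = 0.00554 without control_HS replicate 1). Outside the list, CG8129 (Srr), serine racemase, had 385, 728 and 814 in control_HS and 157, 152 and 231 in InRCA_HS (log2 fold change −1.78 ± 0.29, adjusted p = 0.0155). Without heat the values were 605, 454 and 401. Got2, mitochondrial aspartate aminotransferase, had 4821, 8178 and 7497 in control_HS and 2853, 2869.9 and 3081 in InRCA_HS (log2 fold change −1.18 ± 0.22, adjusted p = 0.0242). NAAT1, an amino acid transporter, rose, with 74.7, 90.4 and 68.8 in control_HS and 136, 149 and 152 in InRCA_HS (log2 fold change 0.90 ± 0.19, adjusted p = 0.0376). CG8129, Got2 and NAAT1 are named after their values were seen. In a list of 17 nutrient transporters made earlier, limma and edgeR called 0 genes, with 6 at an unadjusted p under 0.05. Their median was −0.02 (−0.11 to 0.20). CG8129, Got2, NAAT1, CG6188 and aay lost the call without some library. Their highest adjusted p ran from 0.0694 (CG8129, without InRCA_HS replicate 1) to 0.151 (aay, without InRCA_HS replicate 1).

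Enzymes of nucleotide turnover also moved. NT5E-2 and veil, neighbouring genes of the 5′-nucleotidase family that turn extracellular AMP into adenosine, both rose. NT5E-2 had adjusted counts of 102, 130.0 and 136 in control_HS and 359, 440.2 and 462 in InRCA_HS (log2 fold change 1.77 ± 0.19, adjusted p = 0.00148), and the unheated cross had 554, 415 and 422. veil had 441, 286 and 476 in control_HS and 1421, 1074 and 705 in InRCA_HS (log2 fold change 1.39 ± 0.27, adjusted p = 0.0301). InRCA_noHS stood at 648, 918 and 823. Adgf-D, of the secreted adenosine deaminase family, which breaks adenosine down, had 1660.1, 2734 and 3618 in control_HS and 755, 1024 and 1058 in InRCA_HS (log2 fold change −1.44 ± 0.26, adjusted p = 0.0234). In a list of 11 such genes made after these values had been seen, 2 rose and 1 fell, and the median was −0.16 (−0.29 to 0.15). CG17273 (Adss), adenylosuccinate synthetase, was the 1 of 21 nucleotide synthesis genes that fell, at 1176, 1693 and 1610.4 in control_HS and 793, 833 and 961 in InRCA_HS (log2 fold change −0.78 ± 0.18, adjusted p = 0.0492). NT5E-2 kept the call in each of the 9 fits without 1 library. Calls for Adgf-D, veil and CG17273 depended on the set of libraries. With 1 library omitted, their highest adjusted p lay between 0.0966 (Adgf-D, without InRCA_HS replicate 1) and 0.179 (CG17273, without InRCA_HS replicate 1).

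Cytosolic ribosomal protein genes lay low as a group. Of 86 measured, 81 had a log2 fold change below 0, the median was −0.64 (−0.77 to −0.29), and 9 fell and 0 rose. In 59 of them all 3 InRCA_HS values lay below all 3 control values. The number called depended on the libraries, as 48 were lower without control_HS replicate 1 and 0 to 4 without 1 of the others, with 0 for control_HS replicates 2 and 3 and InRCA_HS replicate 1. Quantile normalization gave the median nearest to 0, at −0.29. RpL32, a protein of the large subunit, had adjusted counts of 18398, 22949 and 20407 in control_HS and 11303, 10468 and 8515 in InRCA_HS (log2 fold change −1.03 ± 0.19, adjusted p = 0.0234). RpL17 had 18637, 22066 and 19742 in control_HS and 8337, 11922 and 9612 in InRCA_HS (log2 fold change −1.03 ± 0.20, adjusted p = 0.0287). RpL4 had 22493, 31461 and 33293 in control_HS and 14215, 13207 and 15548 in InRCA_HS (log2 fold change −1.004 ± 0.22, adjusted p = 0.0392). RpS14a, of the small subunit, had 8976, 12178 and 12280.0 in control_HS and 5269.7, 6041 and 5341 in InRCA_HS (log2 fold change −0.99 ± 0.18, adjusted p = 0.0224). The unheated cross lay between the groups for RpL32, at 13993, 12396 and 12495. The 71 mitochondrial ribosomal protein genes had a median of 0.00 (−0.05 to 0.08), and limma and edgeR each called 0 of them, with 5 at an unadjusted p under 0.05. Among 31 translation factors, Ef1beta, a subunit of the elongation factor that recharges eEF1A, was the 1 that fell, at 9940.5, 14331 and 15442 in control_HS and 6406, 6422 and 6901 in InRCA_HS (log2 fold change −0.98 ± 0.19, adjusted p = 0.0301). Omission of 1 library ended the calls of RpL32, RpS14a, Ef1beta, RpL17 and RpL4, with highest adjusted p-values of 0.0897 (RpL32, without control_HS replicate 2) to 0.151 (RpL4, without InRCA_HS replicate 1).

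Aminoacyl-tRNA synthetases, which load amino acids on tRNA, had a single call among 21 genes. Of the 21, 9 had a log2 fold change above 0 and 12 below, and the median was −0.11 (−0.15 to −0.05). Without control_HS replicate 1, 2 of them were lower, and without any other library 0 were. Aats-trp (TrpRS), for tryptophan, had adjusted counts of 401, 431 and 333 in control_HS and 680.1, 771 and 591 in InRCA_HS (log2 fold change 0.81 ± 0.16, adjusted p = 0.0322). Aats-cys (CysRS), for cysteine, had 496, 706 and 382 in control_HS and 861, 1021 and 824 in InRCA_HS (log2 fold change 0.81 ± 0.21, adjusted p = 0.0696), with unheated libraries at 359.9, 335 and 324. The proteasome, which degrades tagged proteins, had 27 of 30 genes above 0 and a median of 0.23 (0.09 to 0.37), but limma and edgeR called 0 of them, with 8 at an unadjusted p under 0.05. Of 18 genes for folding in the endoplasmic reticulum, 16 lay below 0 with a median of −0.30 (−0.44 to −0.12), limma called 0 and edgeR 1, 5 had an unadjusted p under 0.05. Of these folding genes 4 were lower without control_HS replicate 1 and 0 without any other library. Hsc70-3, the chaperone BiP, had 32951, 54067 and 25273 in control_HS and 22490.0, 28437 and 32126 in InRCA_HS (log2 fold change −0.38 ± 0.29, adjusted p = 0.541). Sec61alpha, the channel of the translocon, had 6603, 11088 and 7826 in control_HS and 8099, 8077 and 10692 in InRCA_HS (log2 fold change 0.10 ± 0.21, adjusted p = 0.861). Both stood lower in the unheated cross, with 10148, 10569 and 12274 for Hsc70-3 and 3728, 3845 and 4061 for Sec61alpha. CaBP1, of the protein disulfide isomerase family, had 4691, 14415 and 9591 in control_HS and 2802, 3676 and 4085 in InRCA_HS (log2 fold change −1.32 ± 0.33, adjusted p = 0.0665; log2 fold change −1.76, adjusted p = 0.00273 without control_HS replicate 1). Outside that list, 3 genes of the same compartment fell, of which P58IPK and boca are named after their values were seen. Genes picked by their calls tell nothing of the compartment as a whole. Plod, which hydroxylates lysines of collagen, had 2723, 5625 and 3734 in control_HS and 1063, 1074 and 1398 in InRCA_HS (log2 fold change −1.72 ± 0.25, adjusted p = 0.00883). P58IPK, a cochaperone of BiP, had 1932, 4875 and 2929 in control_HS and 1170.5, 1354 and 1272 in InRCA_HS (log2 fold change −1.26 ± 0.28, adjusted p = 0.0423). boca, a chaperone for receptors of the LDL receptor family, had 491, 885 and 809.8 in control_HS and 347, 371 and 339 in InRCA_HS (log2 fold change −1.002 ± 0.22, adjusted p = 0.0469). Left out in turn, no single library ended the call of Plod. The highest adjusted p without 1 library lay between 0.128 (Aats-trp, without control_HS replicate 3) and 0.175 (boca, without control_HS replicate 3) for Aats-trp, P58IPK and boca.

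Heat shock genes, measured 6 h after a heat shock that both groups received, were split. Hsp70Bb, a stress-inducible Hsp70 gene, had adjusted counts of 34.8, 107 and 148 in control_HS and 662, 402 and 520.3 in InRCA_HS (log2 fold change 2.64 ± 0.57, adjusted p = 0.0392), and all 3 InRCA_HS libraries lay above all others, with 33.5, 134 and 42.3 in the unheated cross. Its near-identical copy Hsp70Bbb had 7.71, 22.9 and 14.7 in control_HS and 7.79, 3.78 and 0.349 in InRCA_HS (log2 fold change −1.95 ± 0.74, adjusted p = 0.193), and how reads were shared between the copies is not given in the sources used here. Hsp67Bc, a small heat shock protein, was the 1 of 8 that rose, at 359.8, 191 and 317 in control_HS and 4237, 2073 and 599 in InRCA_HS (log2 fold change 2.64 ± 0.56, adjusted p = 0.0386), with InRCA_HS replicate 3 far below its group and 1486, 2284 and 2005 in the unheated cross. In the other direction, Hsp68 had 2222, 5267 and 3812 in control_HS and 1117, 1444 and 1557 in InRCA_HS (log2 fold change −1.38 ± 0.32, adjusted p = 0.0494). stv, a cochaperone of Hsp70, had 627, 1061 and 914 in control_HS and 295, 476 and 435 in InRCA_HS (log2 fold change −1.10 ± 0.24, adjusted p = 0.0392). Hsp83, the Hsp90 of the fly, had 10674, 11835 and 12444 in control_HS and 6626, 8453 and 8365 in InRCA_HS (log2 fold change −0.58 ± 0.18, adjusted p = 0.115). Of the 18 genes on the list of Hsp70, Hsp90, Hsp60 and cochaperones, 1 rose and 2 fell. Their log2 fold changes were above 0 in 5 and below 0 in 13, with a median of −0.33. Without 1 library in turn, 0 to 1 of them were higher and 0 to 2 lower. The 8 small heat shock proteins had 5 above 0 and 3 below, with a median of 0.36 (0.04 to 0.52). HIP-R, an Hsp70-interacting protein named after its values were seen, had 137, 111 and 168 in control_HS and 246, 333 and 247 in InRCA_HS (log2 fold change 0.99 ± 0.21, adjusted p = 0.0376). For HIP-R, Hsp67Bc, Hsp70Bb, stv and Hsp68, the least favourable omission of 1 library put the adjusted p at 0.126 (HIP-R, without control_HS replicate 2) to 0.179 (Hsp68, without InRCA_HS replicate 1).

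Immune effectors were among the largest decreases. Of 7 short immune-induced peptides, all had a log2 fold change below 0, 3 fell and the median was −1.85. Of the 7, 3 were lower without control_HS replicate 1 and 0 to 4 without 1 of the others, with 0 for control_HS replicates 2 and 3 and InRCA_HS replicates 1 and 2. IM1 (BomS1) had adjusted counts of 1999.5, 2810.1 and 1721 in control_HS and 152, 312 and 539.6 in InRCA_HS (log2 fold change −2.85 ± 0.53, adjusted p = 0.0242). IM2 (BomS2) had 1348, 2414 and 2238 in control_HS and 189, 511 and 667 in InRCA_HS (log2 fold change −2.27 ± 0.51, adjusted p = 0.0469). CG15067 (BomBc2), which lies between them in the genome, had 979, 827 and 528 in control_HS and 42.1, 153 and 137 in InRCA_HS (log2 fold change −2.96 ± 0.58, adjusted p = 0.0301). No InRCA_HS library reached a control library. The unheated cross lay lower still, at 25.7, 115 and 46.6 for IM1, 39.6, 126 and 44.0 for IM2 and 2.33, 14.3 and 4.87 for CG15067 (log2 fold change of InRCA_HS over InRCA_noHS for CG15067 3.86, adjusted p = 0.00668). Of 14 antimicrobial peptide genes, 4 fell and 0 rose, with a median of −1.56. Their log2 fold changes were below 0 in 11 and above 0 in 3, the highest at 1.62. Of the antimicrobial peptide genes 6 were lower without control_HS replicate 1 and 0 to 7 without 1 of the others, with 0 for control_HS replicates 2 and 3 and InRCA_HS replicate 1. Dpt (DptA), a diptericin and standard readout of the Imd pathway, had 1567, 2025 and 1366 in control_HS and 265, 124 and 584 in InRCA_HS (log2 fold change −2.60 ± 0.44, adjusted p = 0.0172). Its neighbour DptB had 789, 1632 and 868 in control_HS and 90.5, 166 and 406 in InRCA_HS (log2 fold change −2.50 ± 0.53, adjusted p = 0.0391). AttB had 787, 2062 and 2782 in control_HS and 76.2, 112 and 595 in InRCA_HS (log2 fold change −3.25 ± 0.67, adjusted p = 0.0362). AttC had 2269, 6636 and 5338 in control_HS and 1062, 1107 and 1739.8 in InRCA_HS (log2 fold change −1.76 ± 0.35, adjusted p = 0.0308). AttA, a close copy of AttB, had 279, 886 and 1189 in control_HS and 37.8, 63.2 and 405 in InRCA_HS, with overlapping groups (log2 fold change −2.73 ± 0.78, adjusted p = 0.0926; log2 fold change −3.35, adjusted p = 0.0316 without control_HS replicate 1). Within InRCA_HS, replicate 3 was the highest library for Dpt, DptB, AttA, AttB and AttC. Dpt, IM1, CG15067, AttC, DptB, AttB and IM2 lost the call without some library. Their highest adjusted p ran from 0.0708 (Dpt, without InRCA_HS replicate 1) to 0.168 (IM2, without control_HS replicate 3).

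Drs, the antifungal peptide drosomycin and standard readout of Toll, had adjusted counts of 16258, 18809 and 13184 in control_HS and 4664, 8003 and 12781 in InRCA_HS, and the difference missed the threshold (log2 fold change −1.03 ± 0.33, adjusted p = 0.12). edin, an immune-induced peptide, had 64.1, 39.6 and 35.0 in control_HS and 4.80, 6.58 and 15.9 in InRCA_HS (log2 fold change −2.33 ± 0.50, adjusted p = 0.0395). TotC, of the Turandot stress peptides, had 91.1, 149.7 and 154 in control_HS and 8.75, 22.7 and 49.6 in InRCA_HS (log2 fold change −2.51 ± 0.55, adjusted p = 0.0419). It was the 1 that fell of 14 Turandot and JAK-STAT-responsive genes, of which 0 rose and 6 had a log2 fold change above 0, with a median of −0.11 (−0.21 to 0.03). TotB lay the other way without passing the test, at 2.91, 3.45 and 1.87 in control_HS and 10.4, 4.57 and 82.7 in InRCA_HS (log2 fold change 2.24 ± 0.83, adjusted p = 0.183). Upstream of the peptides, 2 of 23 Toll and Imd signalling genes fell and 0 rose, with a median of −0.13 (−0.24 to −0.05). Of the 23, 3 were lower without control_HS replicate 1 and 1 to 2 without 1 of the others, with 1 for control_HS replicates 2 and 3, InRCA_HS replicate 2 and InRCA_noHS replicates 1, 2 and 3. SPE, the protease that cuts the Toll ligand into its active form, had 738, 1146 and 1028 in control_HS and 264, 229.9 and 322 in InRCA_HS (log2 fold change −1.82 ± 0.25, adjusted p = 0.00613). Libraries without heat held 181, 125 and 97.6. Dif, an NF-kappaB factor of the Toll pathway, had 303, 276 and 307 in control_HS and 200.03, 128 and 127 in InRCA_HS (log2 fold change −0.99 ± 0.22, adjusted p = 0.0423). The ligand spz itself had 149, 173 and 113 in control_HS and 531, 344 and 219 in InRCA_HS, higher in every InRCA_HS library without passing the test (log2 fold change 1.25 ± 0.33, adjusted p = 0.0722). The receptor Tl had 2084, 2659 and 2185 in control_HS and 1339, 1025 and 1723 in InRCA_HS (log2 fold change −0.78 ± 0.20, adjusted p = 0.0681; log2 fold change −0.85, adjusted p = 0.0403 without control_HS replicate 1). Rel, the NF-kappaB factor of the Imd pathway, had 2207, 2255 and 2510.1 in control_HS and 1618, 1496 and 1794 in InRCA_HS (log2 fold change −0.51 ± 0.15, adjusted p = 0.102). The call of SPE held in all 9 fits without 1 library. Calls for edin, Dif and TotC depended on the set of libraries. With 1 library omitted, their highest adjusted p lay between 0.151 (edin, without InRCA_HS replicate 1) and 0.161 (TotC, without control_HS replicate 3).

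Receptors for microbial patterns gave 0 calls by limma among 14 genes and 1 by edgeR, with 7 at an unadjusted p under 0.05. Their median was −0.23 (−0.33 to 0.01). For these receptors 3 were lower without control_HS replicate 1 and 0 without any other library. The one with the largest difference, PGRP-SB2, of the peptidoglycan recognition family, had adjusted counts of 275, 6.39 and 81.0 in control_HS and 1177, 4218 and 373 in InRCA_HS (log2 fold change 4.48 ± 1.15, adjusted p = 0.0688). It lay higher in every InRCA_HS library, with 1190.1, 2421 and 2714 in the unheated cross, and passed the threshold without control_HS replicate 1 (log2 fold change 5.64, adjusted p = 0.0136) and without InRCA_HS replicate 3. Of the 14, 5 had a log2 fold change above 0 and 9 below. PGRP-SA, a circulating sensor that feeds Toll, had 1081, 1753 and 1614 in control_HS and 927, 762 and 1075 in InRCA_HS (log2 fold change −0.67 ± 0.23, adjusted p = 0.155; log2 fold change −0.88, adjusted p = 0.0362 without control_HS replicate 1). Its partner GNBP1 had 282, 808 and 471 in control_HS and 261, 185 and 227 in InRCA_HS (log2 fold change −1.09 ± 0.31, adjusted p = 0.0926; log2 fold change −1.47, adjusted p = 0.00851 without control_HS replicate 1). PGRP-LB, which degrades peptidoglycan, had 121, 326 and 250.3 in control_HS and 221, 145 and 195 in InRCA_HS (log2 fold change −0.22 ± 0.32, adjusted p = 0.779). In serpins, which block serine proteases of immune cascades, 2 of 19 fell and 0 rose, with a median of −0.03 (−0.39 to 0.05). Their log2 fold changes were above 0 in 9 and below 0 in 10, the highest at 1.40. In 4 all InRCA_HS values lay above all control values, and in 3 below. Of the serpins 5 were lower without control_HS replicate 1 and 0 to 3 without 1 of the others, with 0 for control_HS replicates 2 and 3 and InRCA_HS replicates 1 and 2. Spn28D (Spn28Dc), a serpin that restrains phenoloxidase, had 459.6, 571 and 757 in control_HS and 189, 225 and 306 in InRCA_HS (log2 fold change −1.31 ± 0.22, adjusted p = 0.0172). Spn43Ab had 2319.5, 4988 and 4786 in control_HS and 1353, 1169.9 and 1882 in InRCA_HS (log2 fold change −1.40 ± 0.29, adjusted p = 0.0386). The 11 hemocyte markers, a sign of blood cells in the tissue, had 0 calls by limma and by edgeR (2 at an unadjusted p under 0.05) and summed to 16344 to 25277 in control_HS and 15763 to 25511 in InRCA_HS, so the 2 ranges overlapped. Omission of 1 library ended the calls of Spn28D and Spn43Ab, with highest adjusted p-values of 0.0746 (Spn28D, without InRCA_HS replicate 1) to 0.151 (Spn43Ab, without control_HS replicate 3).

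**Figure D4:**
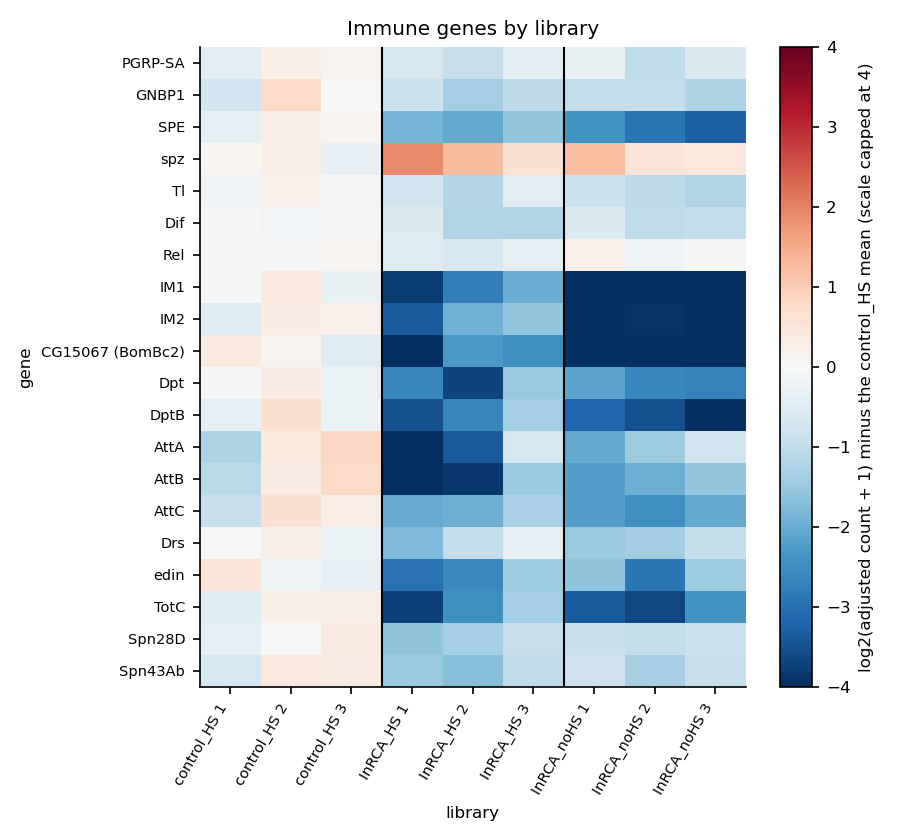
Log2(adjusted count + 1) minus the control_HS mean (colour, capped at 4 in both directions) for 20 immune genes (rows) in the 9 libraries (columns, groups separated by lines). The peptide genes from IM1 to TotC are blue in both groups of the 8263 cross, with InRCA_HS replicate 3 the palest of its group for most of them, and spz is the red row.

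Serum and storage proteins, the main products of the larval fat body, had 1 rise and 1 fall among 11 genes. Fbp2, a fat body protein of the alcohol dehydrogenase family that accumulates late in larval life, had adjusted counts of 10683, 6081 and 7906 in control_HS and 104160.0, 155030.0 and 123840.0 in InRCA_HS (log2 fold change 3.98 ± 0.32, adjusted p = 0.000167). Unheated larvae had 198420.0, 122650.0 and 192270.0. CG42847, which overlaps Fbp2 in the genome so that reads may be shared, had 3.82, 11.7 and 24.2 in control_HS and 259, 221 and 224 in InRCA_HS (log2 fold change 4.35 ± 0.55, adjusted p = 0.00409). Yp3, a yolk protein, had 2061, 2699 and 2034 in control_HS and 484, 504 and 369.5 in InRCA_HS (log2 fold change −2.32 ± 0.28, adjusted p = 0.00373). The hexamerins are amino acid stores for metamorphosis. Lsp2 had 1229500.0, 1291700.0 and 1232500.0 in control_HS and 722200.0, 856320.0 and 1003400.0 in InRCA_HS (log2 fold change −0.55 ± 0.62, adjusted p = 0.703). Lsp1beta had 647400.0, 832350.0 and 671110.0 in control_HS and 382690.0, 411540.0 and 612290.0 in InRCA_HS (log2 fold change −0.64 ± 0.51, adjusted p = 0.568). Lsp1gamma had 321780.0, 486070.0 and 323440.0 in control_HS and 302890.0, 221970.0 and 319770.0 in InRCA_HS (log2 fold change −0.41 ± 0.44, adjusted p = 0.69). These 3 lay lower in every InRCA_HS library, whereas Lsp1alpha overlapped, at 502670.0, 632070.0 and 410860.0 in control_HS and 294210.0, 301460.0 and 452910.0 in InRCA_HS (log2 fold change −0.57 ± 0.48, adjusted p = 0.59). Fbp1, the hexamerin receptor, had 846380.0, 707450.0 and 949350.0 in control_HS and 808120.0, 981400.0 and 933110.0 in InRCA_HS (log2 fold change 0.13 ± 0.61, adjusted p = 0.941). For these very abundant genes the SE is wide, since the fitted spread varies with the level. With any 1 library left out, Fbp2, CG42847 and Yp3 passed the threshold.

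All 9 genes of iron storage and transport had a log2 fold change below 0, and 1 fell. This was Tsf1, the iron carrier transferrin, with adjusted counts of 14088, 21731 and 24885 in control_HS and 7636, 9872 and 9579 in InRCA_HS (log2 fold change −1.13 ± 0.25, adjusted p = 0.0441). Fer1HCH, a ferritin subunit, had 7152, 15935 and 11670.0 in control_HS and 6072, 7727 and 7715 in InRCA_HS (log2 fold change −0.63 ± 0.27, adjusted p = 0.243; log2 fold change −0.94, adjusted p = 0.0225 without control_HS replicate 1). Obp99a, a secreted odorant-binding protein, had 1862, 2159 and 1902 in control_HS and 658, 1002 and 758 in InRCA_HS (log2 fold change −1.31 ± 0.17, adjusted p = 0.00493). It was the 1 that fell of 13 odorant-binding protein genes, of which 1 rose. Of the 13, 4 had a log2 fold change above 0 and 9 below, and the median was −0.30 (−0.53 to −0.07). Without 1 library in turn, 0 to 1 of them were higher and 1 was lower. Obp99a kept the call in each of the 9 fits without 1 library. The call of Tsf1 did not survive the omission of 1 library, with an adjusted p of up to 0.171 (without InRCA_HS replicate 1).

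Cytochromes P450, which oxidise hormones and foreign compounds, gave 1 rise and 6 falls among 74 genes, with a median of −0.33 (−0.56 to −0.19). Of the 74, 17 were lower without control_HS replicate 1 and 2 to 7 without 1 of the others, with 2 for InRCA_HS replicate 1. Cyp6w1 had the lowest log2 fold change among all called genes, with adjusted counts of 80.4, 264 and 222 in control_HS and 23.7, 13.2 and 12.1 in InRCA_HS (log2 fold change −3.34 ± 0.44, adjusted p = 0.00493). Cyp309a1 had 2864, 3726 and 4746 in control_HS and 983, 1228 and 1157 in InRCA_HS (log2 fold change −1.73 ± 0.23, adjusted p = 0.00493). Cyp4p1 had 286, 502 and 339 in control_HS and 85.0, 69.9 and 151 in InRCA_HS (log2 fold change −1.91 ± 0.30, adjusted p = 0.012). Cyp4d1 had 8626, 13767 and 16163 in control_HS and 3829, 5858 and 5559 in InRCA_HS (log2 fold change −1.31 ± 0.27, adjusted p = 0.0382). In these 4 genes every InRCA_HS value lay below every control value. Cyp6d5 had 3952, 3748 and 5431 in control_HS and 1933, 2543 and 2025 in InRCA_HS (log2 fold change −1.004 ± 0.18, adjusted p = 0.0234), and the unheated cross stayed at the control level, with 4995, 5249 and 4559 (log2 fold change −1.19, adjusted p = 0.0073 over InRCA_noHS). The gene that rose, Cyp6t1, had 11.6, 20.7 and 16.3 in control_HS and 100.4, 76.6 and 78.5 in InRCA_HS (log2 fold change 2.35 ± 0.28, adjusted p = 0.00287). The unheated cross had 102, 65.8 and 83.7. The calls of Cyp6w1, Cyp309a1 and Cyp6t1 held in all 9 fits without 1 library. Cyp4p1, Cyp6d5 and Cyp4d1 lost the call without some library. Their highest adjusted p ran from 0.0592 (Cyp4p1, without InRCA_HS replicate 1) to 0.151 (Cyp4d1, without InRCA_HS replicate 1).

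Lysosomal genes were gathered into a list of 13 after their values had been seen, of which 4 rose and 1 fell, with a median of 0.78. Of the 13, 4 were higher without control_HS replicate 1 and 0 to 5 without 1 of the others, with 0 for control_HS replicates 2 and 3 and InRCA_HS replicates 1 and 2. Lerp, the sorting receptor that brings enzymes to lysosomes, had adjusted counts of 364, 315 and 326 in control_HS and 1618, 943 and 783 in InRCA_HS (log2 fold change 1.66 ± 0.30, adjusted p = 0.0224). CG17119 (Ctns), the cystine exporter cystinosin, had 131, 68.8 and 91.4 in control_HS and 497, 302 and 204 in InRCA_HS (log2 fold change 1.73 ± 0.32, adjusted p = 0.0242). CG8596 (Cln7), a lysosomal membrane transporter, had 565, 374 and 355 in control_HS and 1038, 1176 and 672 in InRCA_HS (log2 fold change 1.15 ± 0.24, adjusted p = 0.0391). mop, an endosomal protein needed for receptor sorting, had 1182, 768 and 825 in control_HS and 2229.5, 1875 and 1324 in InRCA_HS (log2 fold change 0.96 ± 0.22, adjusted p = 0.0493). For these genes InRCA_HS replicate 3 was the lowest library of its group, and the unheated cross was also high, at 722, 1437 and 1303 for Lerp and 2329.9, 1969 and 2114 for mop. Npc2a, a sterol carrier inside lysosomes, had 3004, 4016 and 4246 in control_HS and 2047, 2309.6 and 1851 in InRCA_HS (log2 fold change −0.85 ± 0.17, adjusted p = 0.0332). The 19 genes of the autophagy and lysosome list made earlier had 0 calls by limma and by edgeR, 3 genes at an unadjusted p under 0.05 and a median of 0.09 (−0.02 to 0.13). Calls for Lerp, CG17119, Npc2a, CG8596 and mop depended on the set of libraries. With 1 library omitted, their highest adjusted p lay between 0.0847 (Lerp, without control_HS replicate 3) and 0.182 (mop, without InRCA_HS replicate 1).

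Some markers of other tissues differed between the groups. All 8 salivary gland genes had a log2 fold change above 0, with a median of 1.67, and summed to 14526 to 40606 in control_HS and 58641 to 180823 in InRCA_HS. Sgs5, a glue protein, was the 1 that rose, with adjusted counts of 1181, 847 and 937 in control_HS and 28613, 19645 and 10002 in InRCA_HS (log2 fold change 4.18 ± 0.40, adjusted p = 0.000706). Without heat the values were 16571, 6846 and 7725. Sgs3, another glue protein, had 7833, 2239.5 and 1741 in control_HS and 6016, 19503 and 4474 in InRCA_HS, with overlapping groups (log2 fold change 1.37 ± 0.71, adjusted p = 0.34). Of the 8, 4 were higher without control_HS replicate 1 and 1 to 4 without 1 of the others, with 1 for control_HS replicates 2 and 3, InRCA_HS replicates 1 and 2 and InRCA_noHS replicate 3. sage, a transcription factor of the salivary gland, had 241, 183 and 366 in control_HS and 795, 589.7 and 494 in InRCA_HS (log2 fold change 1.28 ± 0.25, adjusted p = 0.0322). Among 34 cuticle genes 4 rose and 0 fell, while 19 had a log2 fold change above 0 and 15 below, and the median was 0.29 (0.13 to 0.58). In 5 of them all InRCA_HS values lay below all control values, and edgeR called 5 higher and 1 lower. Of the 34, 6 were higher without control_HS replicate 1 and 0 to 4 without 1 of the others, with 0 for control_HS replicates 2 and 3 and InRCA_HS replicate 1. The cuticle genes summed to 20279 to 33032 in control_HS and 33013 to 44364 in InRCA_HS. Lcp3 had 92.1, 81.4 and 112 in control_HS and 769, 588 and 168 in InRCA_HS (log2 fold change 2.16 ± 0.45, adjusted p = 0.0382). Its neighbour Lcp4 had 1492, 912 and 1232 in control_HS and 7760.1, 6438 and 2355 in InRCA_HS (log2 fold change 2.04 ± 0.39, adjusted p = 0.0246). Cpr11A had 125, 172 and 90.6 in control_HS and 662, 255.43 and 415 in InRCA_HS (log2 fold change 1.72 ± 0.37, adjusted p = 0.0392). Cpr78Ca had 20.4, 8.37 and 16.2 in control_HS and 79.6, 83.4 and 28.1 in InRCA_HS (log2 fold change 1.95 ± 0.44, adjusted p = 0.0479). Cpr47Eb lay the other way, at 26.1, 41.7 and 46.5 in control_HS and 12.1, 3.75 and 1.66 in InRCA_HS, and did not pass the test (log2 fold change −2.79 ± 0.67, adjusted p = 0.0574). With any 1 library left out, Sgs5 passed the threshold. Omission of 1 library ended the calls of Lcp4, sage, Lcp3, Cpr11A and Cpr78Ca, with highest adjusted p-values of 0.0966 (Lcp4, without InRCA_HS replicate 1) to 0.179 (Cpr78Ca, without InRCA_HS replicate 1).

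Muscle genes had lower sums in InRCA_HS. Of 18, 1 fell and the median was −0.29 (−0.53 to −0.13). Of the 18, 5 were lower without control_HS replicate 1 and 0 to 1 without 1 of the others, with 0 for control_HS replicates 2 and 3, InRCA_HS replicates 1 and 2 and InRCA_noHS replicate 3. They summed to 41012 to 76686 in control_HS, with replicate 1 the lowest, and to 36607 to 39579 in InRCA_HS. TpnC47D, a troponin C, had adjusted counts of 88.2, 224 and 182 in control_HS and 46.7, 50.2 and 50.4 in InRCA_HS (log2 fold change −1.62 ± 0.32, adjusted p = 0.031). Mhc, the myosin heavy chain, had 4897, 15624 and 16048 in control_HS and 3976, 3571 and 5467 in InRCA_HS (log2 fold change −1.33 ± 0.40, adjusted p = 0.104; log2 fold change −1.89, adjusted p = 0.00271 without control_HS replicate 1). Control_HS replicate 1 was the lowest control library for both. Gut, neuron, Malpighian tubule and gonad markers had 0 calls by limma and by edgeR among 32, 12, 3 and 4 genes, of which 2, 5, 0 and 0 had an unadjusted p under 0.05. The neuron genes summed to 6508 to 9335 in control_HS and 4250 to 5826 in InRCA_HS, without overlap, and the gut genes to 28991 to 30108 and 19683 to 55456. No marker in any of these lists was at 0, but the table holds only genes with reads in every library. The absence of zeros therefore tells nothing of which tissues were present. The part of other tissues in the changes described above was not tested. The call of TpnC47D did not survive the omission of 1 library, with an adjusted p of up to 0.132 (without control_HS replicate 3).

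**Figure D5:**
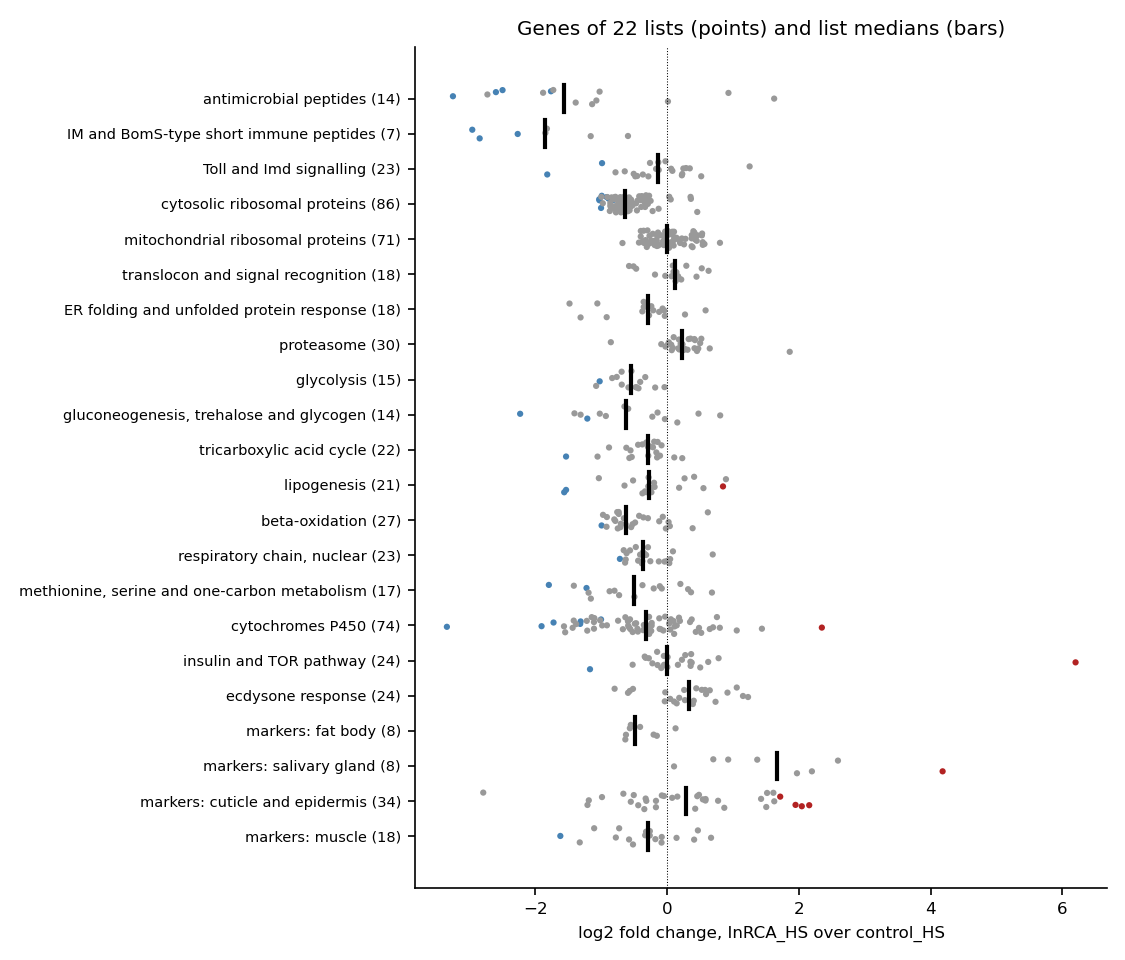
Log2 fold change of InRCA_HS over control_HS (horizontal axis) for the genes of 22 lists (rows, number of measured genes in brackets); points are genes, red for those that rose, blue for those that fell and grey for the rest, and black bars are list medians. Immune peptides have the lowest medians, at −1.56 and −1.85, and salivary gland markers the highest, at 1.67.

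Many of the largest differences were in genes whose role is not given in the sources used here. CG12224 had adjusted counts of 80.5, 83.6 and 86.2 in control_HS and 1559.8, 2438 and 1548 in InRCA_HS (log2 fold change 4.42 ± 0.20, adjusted p = 1.68e-06). The unheated cross had 2870.4, 1969 and 2358, so this gene was high in both groups from the 8263 males. The same held for CG11893, with 1.91, 9.07 and 4.99 in control_HS and 112, 173 and 82.2 in InRCA_HS (log2 fold change 4.40 ± 0.54, adjusted p = 0.00373) and 93.8, 42.2 and 26.3 unheated. CG32335 (meep) had 4.82, 11.5 and 9.62 in control_HS and 139, 140.1 and 152 in InRCA_HS (log2 fold change 3.98 ± 0.28, adjusted p = 5.56e-05). CG43291 had 11.6, 8.28 and 15.7 in control_HS and 139, 149.5 and 207 in InRCA_HS (log2 fold change 3.71 ± 0.26, adjusted p = 5.56e-05). CG11192 had 1.94, 1.20 and 1.67 in control_HS and 13.0, 52.3 and 17.4 in InRCA_HS (log2 fold change 3.21 ± 0.48, adjusted p = 0.01). In the unheated cross the values were 424, 312 and 367 for CG32335, 168, 142 and 149.7 for CG43291 and 55.1, 107 and 76.9 for CG11192. CG9666 (Mettl5) had 37.0, 9.60 and 12.3 in control_HS and 387, 675 and 76.0 in InRCA_HS (log2 fold change 3.96 ± 0.73, adjusted p = 0.024). CR40621 had 19.3, 33.2 and 545 in control_HS and 695, 2887 and 1926 in InRCA_HS (log2 fold change 4.44 ± 0.99, adjusted p = 0.0453). CG9666 and CR40621 had a wide range among the libraries of a group. The calls of CG12224, CG11893, CG32335, CG43291 and CG11192 held in all 9 fits without 1 library. For CG9666 and CR40621, the least favourable omission of 1 library put the adjusted p at 0.0983 (CG9666, without control_HS replicate 3) to 0.164 (CR40621, without control_HS replicate 2).

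In CG15772 and CG14567, InRCA_HS stood above both other groups. CG15772 had adjusted counts of 484, 289 and 303 in control_HS and 1392, 2696 and 1665 in InRCA_HS (log2 fold change 2.40 ± 0.30, adjusted p = 0.00409). InRCA_noHS stood at 401, 258 and 466 (log2 fold change 2.34, adjusted p = 0.00305 over InRCA_noHS). CG14567 had 41.7, 48.7 and 44.0 in control_HS and 139, 157 and 134 in InRCA_HS (log2 fold change 1.66 ± 0.22, adjusted p = 0.00514). Libraries without heat held 26.1, 36.0 and 38.6 (log2 difference 2.08, adjusted p = 0.000854). Among the genes that fell most, CG14273 had 428, 893 and 785 in control_HS and 69.2, 89.0 and 80.7 in InRCA_HS (log2 fold change −3.06 ± 0.29, adjusted p = 0.000706) and 96.1, 57.6 and 88.8 unheated. CG4757 had 1802, 1491 and 2725 in control_HS and 318, 303 and 236 in InRCA_HS (log2 fold change −2.77 ± 0.28, adjusted p = 0.00102), with 55.2, 106 and 91.3 unheated. CG10814 had 5455, 21901 and 16072 in control_HS and 1275, 1851 and 2840.1 in InRCA_HS (log2 fold change −2.72 ± 0.47, adjusted p = 0.02). Unheated larvae had 444, 283 and 561, and CG4757 and CG10814 were thus lower still in that cross. Apc2, a negative regulator of Wnt signalling, had 414, 425 and 551 in control_HS and 181, 222 and 173 in InRCA_HS (log2 fold change −1.26 ± 0.17, adjusted p = 0.0052). kel, an actin-organising protein of ovarian ring canals, had 1493, 2061 and 1723 in control_HS and 703, 693 and 865 in InRCA_HS (log2 fold change −1.22 ± 0.17, adjusted p = 0.00741). Left out in turn, no single library ended the calls of CG15772, CG14567, CG14273, CG4757, Apc2 and kel. The call of CG10814 did not survive the omission of 1 library, with an adjusted p of up to 0.086 (without InRCA_HS replicate 1).

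Some called genes were neighbours in the genome, and 43 of the 141 genes named here overlap another gene of the table, with which they may share reads. Of the 252, 248 could be placed in the order of the current annotation, among 9928 placed genes of the table. In that order 18 pairs of called genes lay next to each other, 15 of them changed in the same direction. Genes absent from the table may lie between them. Whether 18 pairs are more than any 248 placed genes would give was not tested. In 3 of the 18 pairs the genes overlap, so that reads may be shared. One run held 3 genes that rose, CG42834, CG42835 and CG14332. CG42834 had adjusted counts of 376, 402 and 460.0 in control_HS and 1207, 1302 and 1251 in InRCA_HS (log2 fold change 1.61 ± 0.18, adjusted p = 0.0024). CG42835 had 8.74, 7.01 and 6.71 in control_HS and 66.2, 45.4 and 50.2 in InRCA_HS (log2 fold change 2.68 ± 0.30, adjusted p = 0.00238). CG14332 had 626, 562 and 696 in control_HS and 1514, 2203 and 1683 in InRCA_HS (log2 fold change 1.50 ± 0.25, adjusted p = 0.0163). IM1, CG15067 and IM2 formed a run that fell, and Dpt and DptB, veil and NT5E-2, and Lcp3 and Lcp4 were pairs changed in the same direction. With any 1 library left out, CG42834 and CG42835 passed the threshold. The call of CG14332 did not survive the omission of 1 library, with an adjusted p of up to 0.0626 (without control_HS replicate 2).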

How the data were processed

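RNA of larval fat body was measured in 9 libraries, of which the 6 of InRCA_HS and control_HS were compared. Groups were assigned from the sample titles. Per the submitters' processing notes, TopHat 1.3.2, Bowtie 0.12.7 and Cufflinks 1.1.0 were used with the genome build dm3; no source used here gives the read counter, the annotation or whether strand was used, so overlapping, antisense and near-identical genes may share reads. The deposited table gave 1 signal value per gene and library, which its values show to be read counts adjusted by the authors to a common library size within each group; no filter of the authors is stated. All 10372 genes had reads in every library, and 0 of the values was 0. Undoing the adjustment turned 99.5% of the 38615 values of at most 100 into whole reads (tolerance 0.1), and gave 8762758 to 17600180 reads per library. Genes with no read in some library are therefore not seen here.

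Genes were tested on log2(adjusted count + 1) with limma 3.58.1 (R 4.3.3), in a single fit of 9 libraries and 3 group means with an intensity trend, with Benjamini-Hochberg correction over the whole table and 0.05 as the limit for a call. A filter on a mean of at least 1 removed 0 genes. Fold changes on this scale understate those of low genes. The values have decimals, so limma was kept as planned for values that are no raw counts. Alternatives were other pseudocounts, filters and scalings, no trend, array weights, a fit of 6 libraries, a replicate block, edgeR 4.0.16 on recovered reads and each library left out. The tests and the recovery of reads were tested on simulated data. Lists were described by counts and medians, with no test. The members and lists were chosen with earlier results of these data known. By rule, the text names InR and w, genes among the 15 highest and 15 lowest log2 fold changes without overlap between groups, up to 6 members of a list by smallest p, members that anchor a role, and genes called in all 9 fits without 1 library; fewer were printed than the rule takes. Egfr, Lgr1, 5-HT2, S6kII, Pdk, Gk, Dbi, CG6145, Got2, CG8129, NAAT1, veil, Adgf-D, P58IPK, boca, HIP-R, edin, Cyp4d1, the lysosomal genes, sage and CG14332 were chosen after their values were seen. Current symbols, neighbours and overlaps came from Ensembl BDGP6 annotation (9928 of 10372 identifiers matched). Its coordinates served only for the order and overlap of genes and are not printed, because the build differs. Figures were drawn with matplotlib 3.10.9.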

Additional observations from a re-analysis of the deposited data

How the results depend on the processing

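The counts of 115 genes higher and 137 lower stayed between 109 and 120 higher and between 123 and 162 lower with pseudocounts of 0.1 and 5, without a filter, with a minimum mean of 5 or of 20, with quantile normalization, with TMM scaling and with edgeR on recovered reads. Without the intensity trend 46 genes were higher and 44 lower, with array quality weights 331 and 569, and in a fit of only the 6 libraries compared 30 and 26. Without 1 library in turn the counts ran from 32 to 325 higher and from 21 to 636 lower. No numbering in the labels ties libraries across groups, and same-numbered libraries of control_HS and InRCA_HS deviated with correlations of −0.04, −0.25 and 0.07, so the numbers were not taken as pairs; with the replicate number as a block 91 genes were higher and 95 lower. Of the genes named, 101 were called, and 28 of these kept the call in all 9 fits without 1 library. All 101 kept their direction in every alternative run. As their groups do not overlap, leaving out a library could not have reversed that direction. Without 1 library in turn, the log2 fold change of chico ran from −0.10 to 0.16, of PGRP-LB from −0.63 to 0.080, of Zw from −0.14 to 0.64 and of Sec61alpha from −0.070 to 0.30, and Sec61alpha had −0.028 with array quality weights. None of these 4 genes was called. The cause of these shifts was not tested. The table holds only genes with reads in every library, which limits what can be said of genes near 0.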

Other observations

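Other gene groups of the fat body moved little or with no call in this comparison. Of 24 ecdysone response genes, 18 had a log2 fold change above 0, and the median was 0.33 (0.02 to 0.63). Even so, limma and edgeR called 0 of them. The median was 0.02 without control_HS replicate 2 and 0.63 without control_HS replicate 1. Their number at an unadjusted p under 0.05 was 6, and 3 were higher and 1 lower without control_HS replicate 1. Without InRCA_HS replicate 3, 1 was higher and 0 lower, and without any other library 0 were called. The 12 juvenile hormone genes had a median of 0.18 (−0.02 to 0.22) and 0 calls by limma and by edgeR. An unadjusted p under 0.05 was reached by 3 of them. Of these 12, 4 were lower without control_HS replicate 1 and 0 without any other library. The median was −0.04 (−0.09 to 0.04) for the 23 genes of DNA replication and 0.02 (−0.06 to 0.13) for the 22 of ribosome biogenesis. These lists had 0 calls by limma and by edgeR, with 2 and 1 genes at an unadjusted p under 0.05. For the 14 COPI and COPII coat genes the median was −0.08 (−0.20 to 0.08) and for the 18 translocon genes 0.11 (0.02 to 0.27). Both tests likewise gave 0 calls, with 1 and 4 genes at an unadjusted p under 0.05. Without control_HS replicate 1, 1 coat gene and 3 translocon genes were lower, and without any other library 0 were.

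In detoxification, limma and edgeR called 0 of 20 glutathione S-transferases, with 9 at an unadjusted p under 0.05. Their median was −0.42 (−0.65 to −0.22), and 1 was higher and 8 lower without control_HS replicate 1. With any other library left out 0 were lower. Of 10 UDP-glycosyltransferases 1 fell, with a median of −0.63 (−0.90 to −0.37). Among 23 nuclear genes of the respiratory chain 1 fell, the median was −0.37, and 8 were lower without control_HS replicate 1 and 0 without any other library. In the mitochondrial genome, limma and edgeR called 0 of 12 genes, with 0 at an unadjusted p under 0.05. Their median was 0.36 (−0.67 to 1.36). That median was −0.67 without control_HS replicate 1 and −0.54 by edgeR, so the sign of this list depended on the library and on the test.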
